A study of Mus musculus with 10 samples.

Results

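The replication-dependent core histone genes encode the H2A, H2B, H3 and H4 proteins that package newly made DNA. They were chosen by name and read number: a row belonged to the group if its symbol was of the form Hist1 to Hist4 followed by h2a, h2b, h3 or h4 and if its exon reads averaged at least 50 over all exon columns. Of 38087 genes in the tables, 64 matched by name and 50 passed the read minimum. By name 13 of these are H2A, 14 H2B, 11 H3 and 12 H4. The genomic cluster in the symbol was Hist1 for 42 of them, Hist2 for 7 and Hist4 for 1. Hist2h3c2 was the member with the lowest mean, 77.0 reads per column, and Hist1h2aj was the excluded gene with the highest, 34.9 reads.

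The cells were NIH3T3, an established line of mouse fibroblasts, wild type in genotype. All cultures stood for 4 h at 37 °C after seeding and then for 16 h at either 38 or 33 °C. The downshift course went from 38 to 33 °C and the upshift course from 33 to 38 °C, and each was sampled at 0, 1, 3, 6 and 9 h after the change, with 1 sample per time and 10 samples in all. RNA was total RNA freed of ribosomal RNA and sequenced with strand kept; no selection for poly(A) tails is named in the labels. The title of 1 sample gives a mistyped temperature, and its description places it in the upshift.

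Each sample has 2 exon columns that were used together, numbered as series 5 and 11 in the downshift and series 2 and 13 in the upshift, and the downshift samples at 1 and 3 h also have an extra column, series 10. What the series numbers stand for, repeat runs or separate cultures, could not be read from the labels. Results are therefore also given for series 2 and 5 alone and for series 11 and 13 alone. Which upshift series belongs with which downshift series is not given either, so these pairs are a choice. Exon totals were 22403625 to 48004854 reads per column, and the core histone genes took 0.294 to 1.208% of them. The 9 fibroblast markers looked at, among them Vim with 5944 to 7764 CPM (counts scaled to library size), were all detected in every sample. Among 12 markers of other cell types, Lyz2 of leukocytes had 11.3 to 13.5 CPM, Cdh5 of endothelium 1.77 to 5.09 CPM and Cdh1 of epithelium 1.28 to 2.48 CPM, and the other 9 reached at most 0.508 CPM, Cd3e of T cells being at 0.

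Core histone mRNAs are made in bulk during S phase, when DNA is copied, and are degraded when replication stops or ends. Most have no intron and no poly(A) tail: their 3′ end is a short hairpin, the histone stem-loop, which is bound by the stem-loop binding protein and is formed by a cleavage that needs the U7 small nuclear ribonucleoprotein. Many of the genes lie in a large cluster, often as pairs of an H2A and an H2B gene that start close together and point away from each other. The linker histone H1 genes of the same cluster are regulated in a similar way, whereas variants such as H3.3 or H2A.Z are made throughout the cell cycle from genes with introns and poly(A) tails.

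The stem-loop is shown for members of each class, because it is the element by which these mRNAs are known. A 16-base hairpin with a 6-base stem and a 4-base loop was found in the GENCODE M21 transcripts of 28 of the 43 members that have one, and in 81 of 55450 genes of that annotation (0.146%). Capitals mark the stem-loop, the flanks are 5 bases on each side, and T stands for U.
Hist2h2ac (H2A): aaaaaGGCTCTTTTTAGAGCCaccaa
Hist1h2bb (H2B): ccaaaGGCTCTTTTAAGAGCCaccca
Hist1h3a (H3): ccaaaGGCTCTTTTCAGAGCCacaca
Hist1h3e (H3): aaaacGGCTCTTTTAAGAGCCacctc
Hist1h4f (H4): tcaaaGGCCCTTTTCAGGGCCaccca
Hist1h4b (H4): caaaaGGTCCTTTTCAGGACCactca
Hist4h4 (H4): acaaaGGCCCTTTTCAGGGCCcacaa
The stem read GGCTCT in every H2A, H2B and H3 member in which a loop was found, and GGCCCT or GGTCCT in the H4 members. By class the hairpin was found in 6 of 13 H2A, 7 of 12 H2B, 5 of 6 H3 and 10 of 12 H4 transcripts. Of the 15 members without a match, 10 have an annotated transcript shorter than 450 bases, and 5 (Hist1h2bc, Hist2h2bb, Hist2h2be, Hist2h3b and Hist1h4a) have a longer one. In some members the annotated transcript runs far past the hairpin, by 2445 bases in Hist4h4 and by 369 bases in Hist1h3e, against 33 bases in Hist1h4f.

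The copies of a class are so alike that reads can fall on several of them. Windows of 50 bases from a member's exons were looked up in all annotated genes, on either strand. The share found in no other gene had a median of 32.9% in H2A, 53.1% in H2B, 38.0% in H3 and 65.8% in H4. It ran from 0.0% in Hist2h3b to 100% in Hist2h2be. Hist2h3b shared most windows with Gm20634 and with Gm20628, which overlaps it on the opposite strand. Antisense genes thus count in this share. The rule by which the authors divided shared reads was not stated, so levels of single copies are uncertain and class sums are given beside them. The row named Hist2h2bb, which holds more reads than any other member (25777 per column on average), carries an ID that GENCODE M21 gives to Gm42743, a long non-coding RNA of 2 exon blocks at chr3:96269721-96279001 on the plus strand. M21 has its own Hist2h2bb under another ID on the same strand there and Gm20628 on the opposite strand, so this row's reads cannot be assigned to an H2B mRNA alone. Hist1h2al is annotated as a processed pseudogene in M21, with 32.4% of its windows in no other gene. It shares most windows with Hist2h2aa2 and Hist2h2aa1, which averaged 10.9 and 0.0 reads. The origin of its reads was not tested.

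After the upshift to 38 °C 43 of the 50 core histone mRNAs fell, where 16.9% of all genes tested did. After the downshift to 33 °C 9 of the 50 rose, a share close to the 15.9% of all genes. Summed over the 50 genes, the level in the downshift samples was 5405, 4379, 5007, 5822 and 7450 CPM at 0, 1, 3, 6 and 9 h. In the upshift samples it was 8774, 8827, 8329, 4652 and 3696 CPM at the same times. The cooled cells thus had their lowest sum at 1 h and their highest at 9 h, and the warmed cells stayed near their starting level for 3 h and were below it at 6 and 9 h. In these bulk samples, fewer cells with histone mRNA and less histone mRNA per cell cannot be told apart.

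The column series differed in size and shape. In series 5 the downshift sums were 4975, 3319, 3718, 5302 and 9441 CPM, and in series 11 they were 5836, 5439, 6296, 6343 and 5460 CPM. Series 11 therefore ended below its 0 h level, while series 5 ended above it. In the upshift, series 2 had 11291, 12317, 12441, 5603 and 3474 CPM and series 13 had 6257, 5337, 4218, 3702 and 3918 CPM. Both upshift series ended below their start, series 2 after a plateau of 3 h and series 13 from the first hour on.

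**Figure D1:**
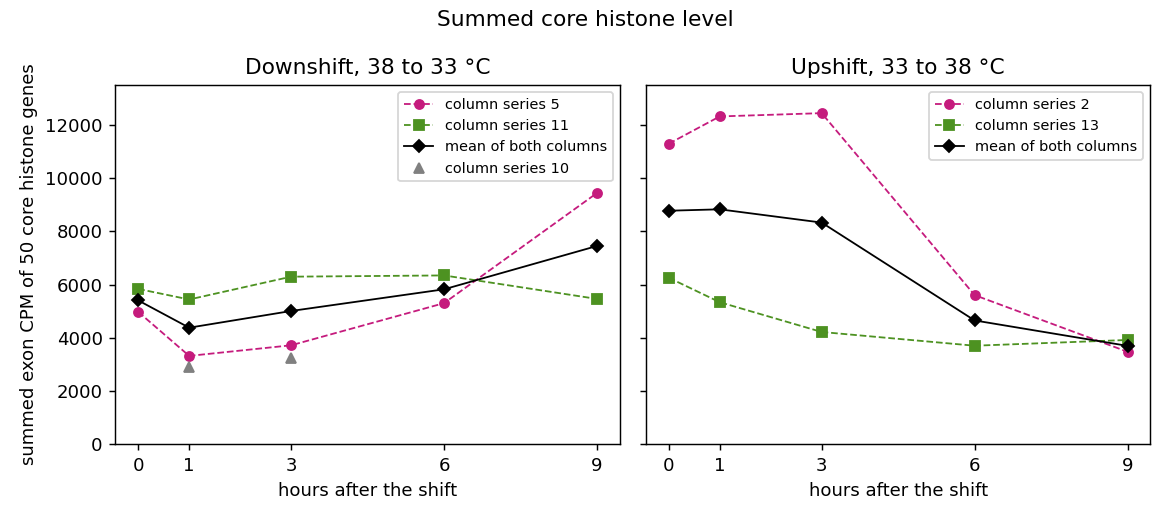
Summed exon CPM of the 50 core histone genes (y axis, from 0) against hours after the temperature change (x axis) for the downshift (left) and upshift (right). Circles and squares with dashed lines are the column series, black diamonds their mean, and grey triangles the extra series 10; the upshift mean goes from 8774 to 3696 CPM and the downshift mean from 5405 to 7450 CPM.

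The plot of summed levels shows that series 5 and 2 span a wider range than series 11 and 13 and that the upshift series end close to each other, at 3474 and 3918 CPM.

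All 4 classes followed this course in nearly constant proportion. H2A summed to 736, 578, 655, 765 and 1032 CPM in the downshift and to 1196, 1186, 1113, 616 and 482 CPM in the upshift. H2B summed to 1689, 1273, 1428, 1736 and 2253 CPM and then to 2769, 3021, 2633, 1460 and 1107 CPM. Both dimer partners were thus lowest at 1 h in the cooled cells and lowest at 9 h in the warmed cells. H3 summed to 902, 770, 883, 1026 and 1304 CPM in the downshift and to 1454, 1347, 1360, 739 and 605 CPM in the upshift. H4 summed to 2079, 1758, 2041, 2295 and 2862 CPM and then to 3356, 3274, 3223, 1838 and 1502 CPM. H2A, H3 and H4 were highest in the upshift 0 h sample and H2B in the upshift 1 h sample, and all 4 classes were lowest in the upshift 9 h sample.

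As a share of all core histone CPM over the 10 samples, H2A took 13.1 to 13.8%, H2B 28.5 to 34.2%, H3 15.3 to 17.6% and H4 37.1 to 40.8%. These are shares of reads and not per transcript length, so they give no order of mRNA numbers between classes. The log2 ratio of 9 h to 0 h was 0.49 for H2A, 0.42 for H2B, 0.53 for H3 and 0.46 for H4 after the downshift. After the upshift it was -1.31, -1.32, -1.27 and -1.16 in the same order. The difference between the shifts was thus 1.80, 1.74, 1.80 and 1.62, a narrower spread between classes than between column series: it was 2.48 to 2.75 in series 2 and 5 and 0.55 to 0.61 in series 11 and 13. These class values rest on single samples and carry no test.

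For single genes, a line over log2(h + 1) was fitted in each course with edgeR's quasi-likelihood test across 10271 genes, and the fitted change is the log2 change from 0 to 9 h. A gene is called up or down at a Benjamini-Hochberg adjusted p under 0.05. The p-values measure the spread of the 10 samples about the lines, since no time has a second sample.

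After the downshift 9 of the 50 members were called up and 0 down, where 15.9% of all genes tested were called up and 16.0% down. The members' share is thus close to the background. Their median fitted change was 0.53, against 0.01 for all genes, and 47 of 50 were above 0. Those called up were Hist1h2ag, Hist1h2an and Hist2h2ac of H2A, Hist1h2bh and Hist1h2bl of H2B, Hist1h3a, Hist1h3e and Hist1h3g of H3, and Hist4h4, with fitted changes from 0.75 (Hist1h3a) to 1.27 (Hist4h4). In series 2 and 5 alone 6 members were called up (background 10.3%), and in series 11 and 13 alone 1 was called up, Hist1h3e (background 10.1%), and 1 down, Hist1h3b (background 10.4%). The count depended on single samples and on the time scale, and the share of all genes called up is given in brackets. It was 0 without the downshift 9 h sample (7.39%), with 2 members at an unadjusted p under 0.05 by edgeR. It was 4 without the downshift 1 h (10.3%), the downshift 6 h (9.19%) or the upshift 1 h sample (14.7%). Without the upshift 6 h sample it was 5 (14.7%), and without the upshift 3 h sample 14 (17.1%). With series 10 added it was 5 (15.3%), and with linear hours 29 (13.7%). With 0 h set against 3, 6 and 9 h it was 0 (1.29%), with 1 member at an unadjusted p under 0.05 by edgeR.

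After the upshift 43 of the 50 members were called down and 0 up, where 16.9% of all genes were called down and 16.1% up (13.4% and 19.9% with scaling by library size alone). The median fitted change was -1.33, against 0.01 for all genes. By class 11 of 13 H2A, 12 of 14 H2B, 8 of 11 H3 and all 12 H4 members fell. The members not called were Hist1h2ab, Hist2h2ab, Hist1h2bk, Hist2h2be, Hist1h3b, Hist1h3d and Hist2h3c2. Series 2 and 5 alone gave 21 members called down (background 14.3%, median -1.66), and series 11 and 13 alone gave 38 (background 12.6%, median -0.67). Without the upshift 9 h sample the count was 9 (13.9% of all genes called down), without the 6 h sample 22 (11.9%) and without the 1 h sample 28 (12.4%). With 0 h set against the later times it was 0 (3.63%), with 5 members at an unadjusted p under 0.05.

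Downshift minus upshift, the difference was called up for 43 members and down for 0, where 23.6% of all genes were called up and 22.8% down. Its median was 1.82, against 0.01 for all genes. It was called up in 37 members in series 2 and 5 (background 18.4%, median 2.46) and in 32 members in series 11 and 13 (background 19.7%, median 0.70). Above 0 were 49 of the 50 members in series 2 and 5 and 44 in series 11 and 13. Of the 10271 genes, 5084 lay above 0 in series 2 and 5 and 5277 in series 11 and 13. Leaving out the 9 h sample of either course gave 27 members (20.6 and 22.9% of all genes), and 0 h against the later times gave 0 up and 1 down (12.6 and 12.2% of all genes; 5 members at an unadjusted p under 0.05). The mean of both shifts was called for 0 of 50 members in edgeR, with 0 at an unadjusted p under 0.05, where 1.29% of all genes were called up and 1.84% down. DESeq2 also called 0 members (4.12% of all genes up and 4.82% down). In the summed columns all 50 members lay below 0 for the mean (median -0.39, against 0.00 for all genes). Only in series 11 and 13 were 2 members called down for the mean, Hist2h2bb and Hist1h4h (background 0.253%). In that pair 39 members had an unadjusted p under 0.05 by edgeR, where 1388 of 10271 genes did. Their median there was -0.32, and 48 of the 50 were below 0.

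**Figure D2:**
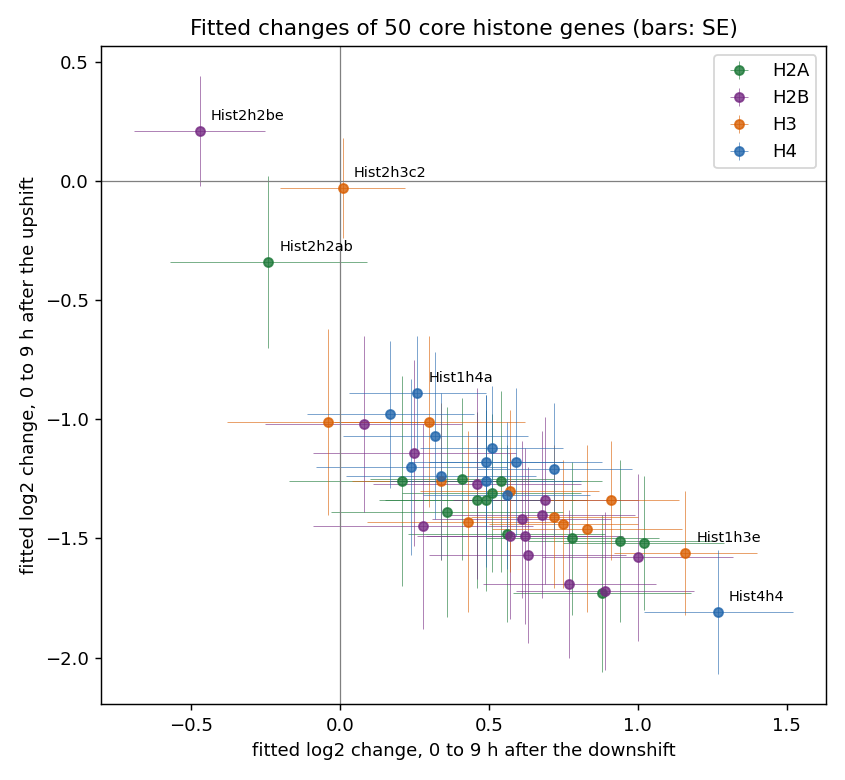
Fitted log2 change from 0 to 9 h after the downshift (x axis) and after the upshift (y axis) for the 50 core histone genes, coloured by class, with bars of 1 SE. Most genes lie right of 0 and below 0, Hist4h4 farthest out at 1.27 and -1.81, while Hist2h2be, Hist2h2ab and Hist2h3c2 stand apart near or above the horizontal zero line.

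The plot of fitted changes shows 1 cloud in which the 4 classes are mixed, and 3 genes outside it. These are Hist2h3c2, Hist2h2be and Hist2h2ab, the members with the fewest reads (77, 140 and 327 per column on average). The other Hist2 members, Hist2h2ac, Hist2h2bb, Hist2h3b and Hist2h4, had differences of 1.67 to 2.60, like the cloud.

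**Figure D3:**
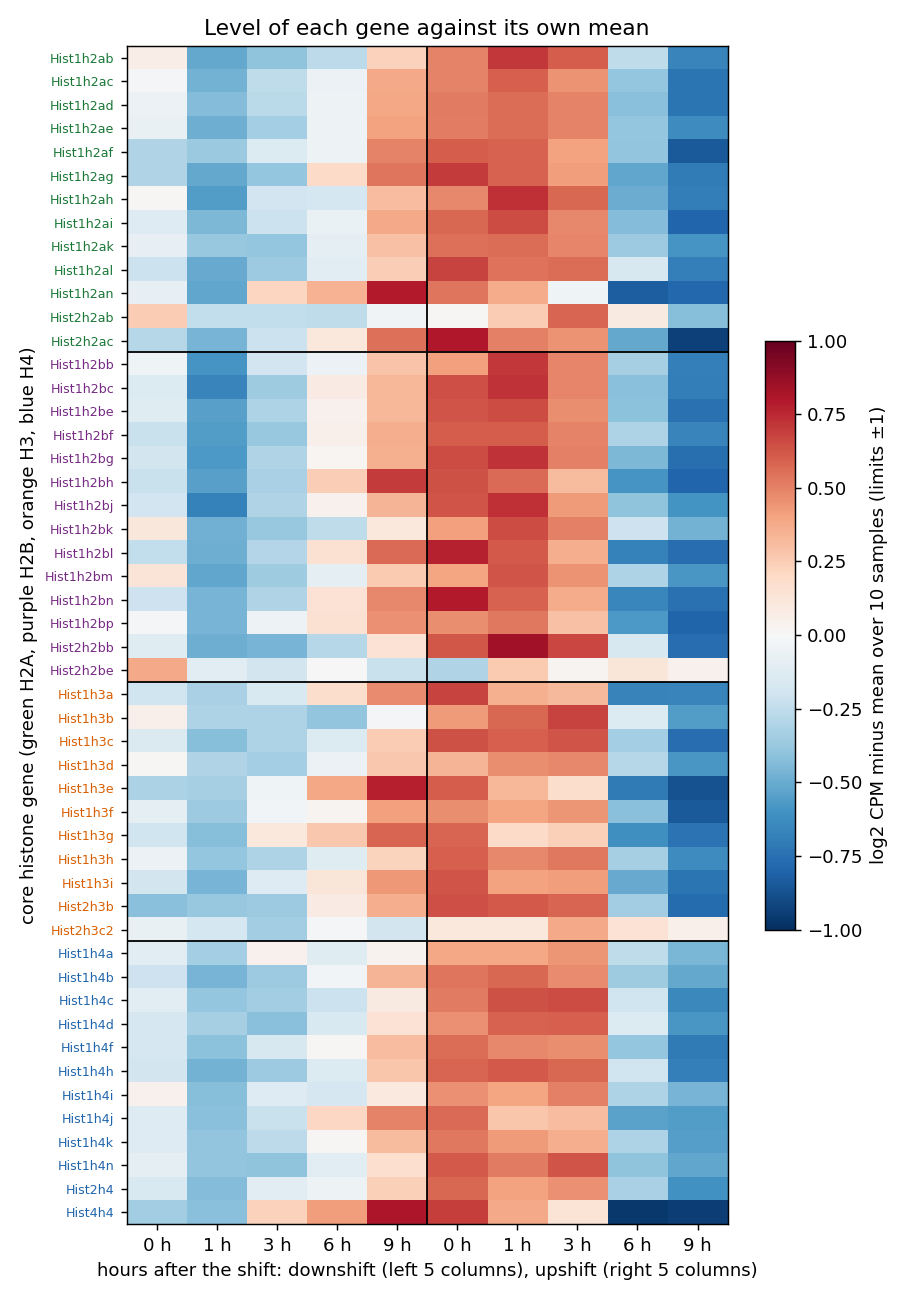
Log2 CPM of each core histone gene (mean of both columns) minus its own mean over the 10 samples. Rows are grouped by class, and columns are hours after the downshift (left) and after the upshift (right). Red is above and blue below the gene's mean, with colours ending at 1 in each direction; 43 genes are lowest in the upshift 9 h sample.

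In the mean of both columns, the highest level stood in the upshift 0 h sample for 18 members and in its 1 h sample for 18. It stood in the upshift 3 h sample for 9, in the downshift 9 h sample for 4 and in the downshift 0 h sample for 1. The lowest level stood in the upshift 9 h sample for 43 members. The heat map shows this as a red block in the first 3 upshift columns and a blue one in the last. Series 2 summed to 11291, 12317 and 12441 CPM at those first 3 times. Series 13 summed to 6257, 5337 and 4218 CPM, against 5439 to 6343 CPM over the downshift in series 11. Levels of single genes here and below are means of both columns, and the order of samples can differ within a series.

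H2A is a partner in the histone dimers that flank the tetramer. Among H2A rows, Hist1h2al (with the limit given above) and Hist1h2ak had the highest levels per length. These were 337 and 300 RPKM (reads per kilobase of exon and per library size) on average. Hist1h2ak (chr13, GENCODE M21) had 107, 86.9, 86.7, 106 and 139 CPM in the downshift and 166, 167, 159, 88.0 and 75.4 CPM in the upshift. Its 3 early upshift samples lay above all others, and its last was the lowest. The fitted change was 0.41 ± 0.31 (SE) on cooling and -1.25 ± 0.34 on warming, and only the second was called (adjusted p = 0.0207 by edgeR). The pseudogene row Hist1h2al had 93.8, 76.7, 84.6, 101 and 129 CPM and then 174, 158, 160, 97.2 and 67.8 CPM. In the mean its early upshift samples were likewise above all others and its last the lowest. Its fitted difference between the shifts was 1.82 ± 0.45 (adjusted p = 0.00806 by edgeR).

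The H2A gene with the largest fitted difference was Hist2h2ac of chromosome 3. It had 85.8, 75.6, 89.8, 112 and 153 CPM in the downshift and 182, 148, 142, 73.0 and 54.5 CPM in the upshift. In the mean of both columns the cooled samples were higher at each later time from 1 h on. Each warmed sample was lower in that mean than the one before. It rose by 0.88 ± 0.30 after the downshift (adjusted p = 0.0475 by edgeR) and fell by 1.73 on the log2 scale after the upshift (SE 0.33, adjusted p = 0.00403), a difference of 2.60 ± 0.45 that was also called in each pair of series (3.28 and 1.63). The smallest difference was that of Hist2h2ab, its neighbour in the same cluster, 0.10 ± 0.49. Hist2h2ab had 11.1, 7.86, 7.86, 7.82 and 9.08 CPM in the downshift and 9.38, 11.1, 13.9, 9.92 and 6.94 CPM in the upshift. The 2 courses overlapped over most of their range, and the sign of the difference changed between the pairs of series (0.34 and -0.36).

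Among H2B genes, Hist2h2bb (494 RPKM, with the limit on its ID given above) and Hist1h2bb (329 RPKM) were highest per length. Hist2h2bb had 642, 498, 505, 572 and 773 CPM and then 1075, 1251, 1106, 626 and 411 CPM. This row made up 38.5% of the H2B sum, and its highest sample was the upshift at 1 h. Its fitted change was 0.28 ± 0.37 after the downshift, not called, and -1.45 ± 0.43 after the upshift (adjusted p = 0.0270 by edgeR). Hist1h2bb, which has the stem-loop shown above, had 155, 106, 140, 153 and 195 CPM and then 212, 261, 224, 127 and 99.4 CPM. It fell after the upshift, with a fitted change of -1.27 ± 0.40 (adjusted p = 0.0355 by edgeR), and its difference of 1.72 ± 0.53 was called in series 2 and 5 (2.44) but not in series 11 and 13 (0.48).

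Hist1h2bl had the largest H2B difference, 2.60 ± 0.45 (adjusted p = 0.00133 by edgeR). Its levels were 88.5, 75.1, 85.6, 117 and 156 CPM in the downshift and 179, 161, 135, 65.8 and 62.0 CPM in the upshift. Both fitted changes were called, 0.89 ± 0.30 and -1.72 ± 0.33. Hist2h2be was the only member whose fitted difference was below 0, -0.68 ± 0.32, and it was not called (adjusted p = 0.107 by edgeR). It had 4.94, 3.51, 3.34, 3.79 and 3.25 CPM in the downshift and 3.09, 4.56, 3.87, 4.14 and 3.91 CPM in the upshift. Its highest sample was the downshift at 0 h and its lowest the upshift at 0 h, and the fitted difference was -0.68 in series 2 and 5 and -0.63 in series 11 and 13, not called in either. Its columns hold only 79 to 201 reads, spread over a transcript of 2620 bases with no stem-loop match.

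Among H3 genes, which encode a partner in the histone tetramer, Hist1h3a and Hist1h3b were the highest per length of those with an annotated length (220 and 203 RPKM), while 5 H3 members have none. Hist1h3a had 97.7, 89.6, 101, 127 and 156 CPM and then 179, 144, 141, 70.7 and 71.1 CPM. It rose by 0.75 ± 0.25 after the downshift (adjusted p = 0.0455 by edgeR) and fell after the upshift, with -1.44 ± 0.27 (adjusted p = 0.00366). Hist1h3b had 125, 97.5, 97.7, 91.9 and 120 CPM and then 162, 180, 193, 110 and 81.9 CPM. Its cooled samples ended near their start, and its fitted changes of -0.04 ± 0.34 and -1.01 ± 0.39 were not called. In series 11 and 13 alone Hist1h3b fell by 0.59 on the log2 scale after the downshift (adjusted p = 0.0169 by edgeR), while in series 2 and 5 its change was upward, 0.29, and not called.

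Hist1h3e had the largest H3 difference, 2.72 ± 0.35 (adjusted p = 0.000328 by edgeR). It had 97.9, 96.7, 118, 159 and 209 CPM in the downshift and 185, 153, 138, 74.7 and 66.6 CPM in the upshift. The downshift 9 h sample was its highest and the upshift 9 h sample its lowest, and it was called after both shifts in each pair of series (1.68 and 0.60 after the downshift, -1.85 and -1.14 after the upshift). Hist2h3c2 had 2.09, 1.95, 1.73, 2.17 and 1.94 CPM and then 2.37, 2.36, 2.86, 2.43 and 2.28 CPM. In the mean of both columns every upshift sample lay above every downshift sample, but in single series the courses overlapped. Neither course had a slope that was called. The fitted difference was 0.03 ± 0.29, and the gene had 34 to 123 reads per column.

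Among H4 genes, whose protein is the other partner in the tetramer, Hist1h4f and Hist1h4h had the highest levels per length of all members with an annotated length, 588 and 572 RPKM. Hist1h4f had 197, 166, 198, 223 and 273 CPM in the downshift and 326, 308, 305, 169 and 135 CPM in the upshift. Hist1h4h had 225, 184, 199, 233 and 310 CPM and then 382, 391, 381, 223 and 159 CPM. In both genes the first 3 upshift samples were above every downshift sample, and the last was below every downshift sample. Both fell after the upshift, with -1.32 ± 0.31 (adjusted p = 0.00982 by edgeR) and -1.26 ± 0.36 (adjusted p = 0.0238).

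Hist4h4, the single core histone member of chromosome 6, had the largest difference of all, 3.08 ± 0.36 (adjusted p = 0.000216 by edgeR). Its levels were 239, 228, 357, 405 and 531 CPM in the downshift and 491, 396, 334, 156 and 158 CPM in the upshift. In the mean of both columns the 2 courses crossed. The cooled cells at 9 h were above the 33 °C cells at 0 h. The warmed cells were below the 38 °C starting level from 6 h on. It rose by 1.27 ± 0.25 after the downshift (adjusted p = 0.00557) and fell by 1.81 on the log2 scale after the upshift (adjusted p = 0.00122), and its difference was called in each pair of series (4.20 and 1.89). The smallest H4 difference was that of Hist1h4a, 1.15 ± 0.33, still called (adjusted p = 0.0182 by edgeR). Hist1h4a had 164, 140, 183, 163 and 182 CPM and then 232, 232, 241, 149 and 129 CPM, so that its cooled samples lay close together and only the warmed ones fell.

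At 0 h of each course, core histone levels in the mean of both columns were higher after 16 h at 33 °C than after 16 h at 38 °C. Both samples had come from 37 °C. The log2 ratio at 0 h, with 0.1 CPM added to each level, had a median of 0.71 over the members and was above 0 for 48 of 50, Hist2h2ab (-0.24) and Hist2h2be (-0.66) being the others. At least 2-fold higher were 4 members, Hist2h2ac, Hist1h2bl, Hist2h3b and Hist4h4 (1.02 to 1.08), where 3.52% of all genes were. In series 2 and 5 the median was 1.22, with 37 members at least 2-fold higher (background 4.35%). In series 11 and 13 it was 0.04 with 0 members at least 2-fold higher (background 5.79%). The ratio at 0 h was thus seen in 1 of the pairs as joined here, and the labels do not give this joining. Summed 0 h levels were 11291 CPM (series 2) and 6257 CPM (series 13) after 33 °C. After 38 °C they were 4975 CPM (series 5) and 5836 CPM (series 11). With 1 sample per temperature the ratio has no test.

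Against their own 0 h sample, members had a median log2 ratio of -0.30 at 1 h of the downshift, where 49 of 50 were below 0, and of 0.00 at 1 h of the upshift. In series 5 the 1 h median was -0.58, with Hist2h2ab and Hist1h2bk at least 2-fold lower (background 0.351%), and in series 11 it was -0.12. At 6 h of the upshift the median was -0.93 and 19 members were at least 2-fold lower (background 1.47%), with 30 in series 2 (background 3.05%) and 9 in series 13 (background 1.32%). At 9 h of the upshift it was -1.25 with 41 members at least 2-fold lower (background 1.76%). For series 2 those values were -1.70 and 47 members (background 2.91%), and for series 13 -0.61 and 5 members (background 1.41%). At 9 h of the downshift the median was 0.46, and Hist1h3e (1.09) and Hist4h4 (1.15) were at least 2-fold higher (background 0.983%). Series 5 had a median of 0.89 with 20 members at least 2-fold higher (background 1.70%), and series 11 a median of -0.10, the opposite sign.

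Head-to-head pairs gave a comparison of genes that start within 400 bases of each other. There were 9 such pairs of an H2A and an H2B member, 8 of them on chromosome 13, with 175 to 301 bases between the annotated starts. In those 8 pairs the fitted differences of the partners lay 0.20 to 0.81 apart, for example 2.04 for Hist1h2ai and 2.60 for Hist1h2bl. The medians of all H2A and all H2B members were also close, 1.82 and 2.05. Gaps between members that are not partners were not measured, so small gaps are not shown to be particular to pairs. In the pair on chromosome 3 Hist2h2ac had 2.60 and Hist2h2be -0.68, a gap of 3.28. Hist2h2ac fell after the upshift in each pair of series, while Hist2h2be was not called in either.

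**Figure D4:**
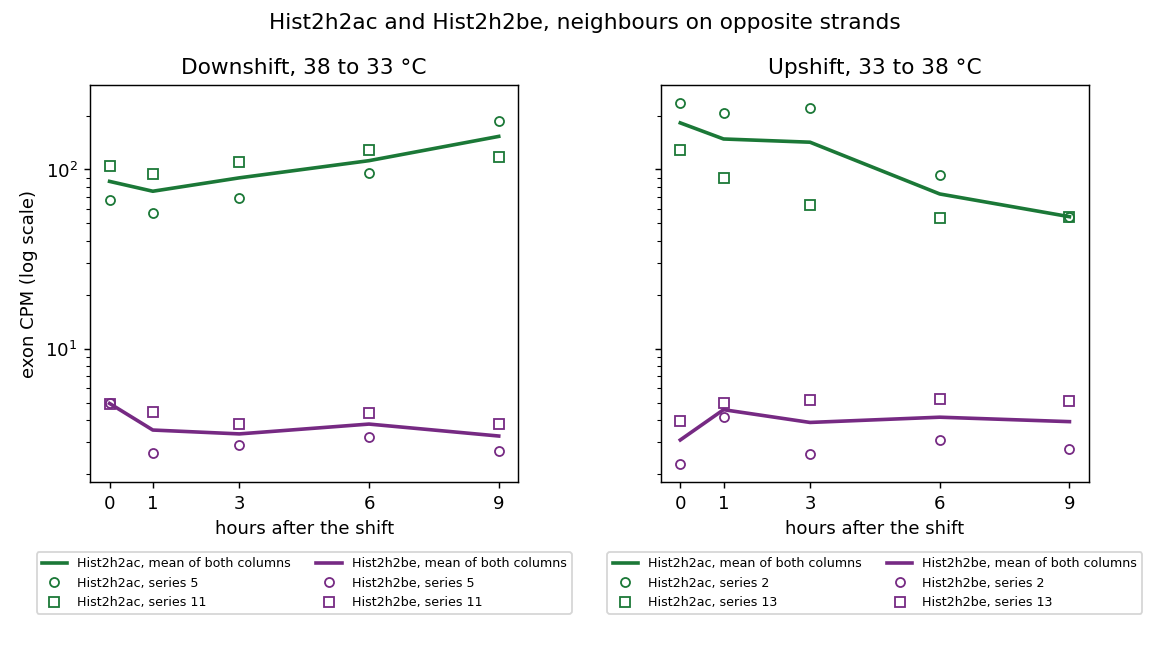
Exon CPM on a log scale (y axis) of Hist2h2ac (green) and Hist2h2be (purple) against hours after the temperature change (x axis) for the downshift (left) and upshift (right). Lines are the mean of both columns and open symbols the column series; Hist2h2ac goes from 182 to 54.5 CPM in the upshift while Hist2h2be stays between 3.09 and 4.56 CPM.

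The plot of the pair on chromosome 3 shows that the genes differ in level at all times and that the separation is smallest in the last upshift sample.

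Part of the DNA between the starts is shown for that pair and for the pair with the largest H2B difference, and DNA upstream of Hist4h4, since these hold the extremes. For the pairs it is the stretch outside the genes as both RefSeq and M21 place their starts, 191 of the 238 and 228 of the 278 bases between the M21 starts. The letters come from RefSeq promoter windows of GRCm38.p6. Capitals mark CCAAT, the box bound by NF-Y, and TATAAA, the TATA box, each on either strand (ATTGG and TTTATA on the other). The first region is chr3:96220881-96221071, plus strand, with Hist2h2ac to its left; the second is chr13:21716184-21716411, plus strand, with Hist1h2bl to its left; the last is chr6:136804432-136804581, minus strand, ending at the start of Hist4h4.
Hist2h2ac to Hist2h2be: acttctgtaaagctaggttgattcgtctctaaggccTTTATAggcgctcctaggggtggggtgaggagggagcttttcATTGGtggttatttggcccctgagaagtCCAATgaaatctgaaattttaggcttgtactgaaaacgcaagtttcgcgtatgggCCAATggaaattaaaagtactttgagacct
Hist1h2bl to Hist1h2ai: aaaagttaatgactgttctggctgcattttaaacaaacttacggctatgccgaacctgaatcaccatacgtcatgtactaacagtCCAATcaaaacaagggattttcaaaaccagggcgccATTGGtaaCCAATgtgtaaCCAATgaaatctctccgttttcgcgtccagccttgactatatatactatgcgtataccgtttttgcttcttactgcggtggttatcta
Hist4h4: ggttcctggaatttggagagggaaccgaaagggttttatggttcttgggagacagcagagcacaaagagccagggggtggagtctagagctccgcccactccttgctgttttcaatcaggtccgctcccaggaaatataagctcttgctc
The Hist2h2ac stretch holds a TATAAA on the side of Hist2h2ac, and none of the printed letters upstream of Hist4h4 match either motif.

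Over the 44 members with a RefSeq window, from 250 bases before to 50 after the start, CCAAT on either strand was present in all 12 H2A, all 12 H2B and all 9 H3 members but in 3 of 11 H4 members. Over all 27025 genes of the table, 41.1% held it. TATAAA was present in 9 H2A, 6 H2B, 4 H3 and 7 H4 members (15.7% of all genes). ATTTGCAT, the octamer bound by Oct1, was present in 5 of 12 H2A and 6 of 12 H2B members and in 0 of the H3 and H4 members (2.0% of all genes). Hist2h2ac is among the H2A members with the octamer, which lies outside the stretch printed above, and Hist2h2be has no window in the table. Windows of a head-to-head pair overlap and so share matches.

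Intron reads were tested for the 4 members with an annotated intron in M21, all H2B rows, among 9358 genes with enough intron reads. Hist1h2bc had 56.0, 42.4, 49.2, 64.1 and 80.7 intron CPM in the downshift and 102, 105, 89.9, 47.8 and 38.4 in the upshift. Its exon levels were 62.4, 43.4, 53.5, 72.5 and 86.4 CPM and then 107, 113, 96.2, 51.3 and 42.5 CPM, the same course. On intron reads it fell after the upshift, with -1.55 ± 0.35 (adjusted p = 0.0334 by edgeR; 0.598% of genes were called down), and its difference was 2.17 ± 0.48 (adjusted p = 0.0136; 1.49% of genes were called up). The intron differences of Hist1h2be (0.03 ± 0.40), Hist1h2bp (-1.80 ± 0.74) and Hist2h2bb (-0.56 ± 0.48) were not called.

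The linker histones H1, which bind the DNA between nucleosomes, had the same directions as the core histone genes. Of 6 genes listed 5 were tested, and all 5 were called up for the difference between the shifts and down after the upshift (median difference 2.76, against 1.82 for the core histone genes), where 23.6% and 16.9% of all genes were. The median was 3.53 in series 2 and 5 and 1.40 in series 11 and 13, with all 5 called up in each (18.4 and 19.7% of all genes). After the downshift 3 of the 5 were called up (15.9% of all genes), 2 in series 2 and 5 (10.3%) and 0 in series 11 and 13 (10.1%). Hist1h1d had 324, 365, 469, 619 and 761 CPM in the downshift and 918, 571, 496, 248 and 245 CPM in the upshift. It rose after the one and fell after the other, with 1.30 and -2.01 (adjusted p = 0.00232 and 0.000301 by edgeR). Hist1h1c (2.99), Hist1h1e (2.76) and Hist1h1b (2.49) had the next differences, each called in edgeR.

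The list of replication-independent variants had 10 tested genes, and whether each is independent of replication was not tested. For the difference 3 were called up and 3 down (median 0.13), where 23.6% of all genes were called up and 22.8% down. H1f0, a linker histone of non-dividing and differentiating cells, had 361, 397, 402, 499 and 681 CPM and then 815, 625, 360, 290 and 275 CPM, a difference of 2.52 ± 0.25. H3f3b, a gene for H3.3, had 542, 787, 862, 950 and 1105 CPM and then 1075, 928, 622, 446 and 450 CPM, a difference of 2.32 ± 0.19. Both followed the core histone genes in direction in both courses, and both were called. H2afx, the variant of the DNA damage response, had 1.34 ± 0.37. Cenpa, the H3 variant of centromeres, went the other way with 122, 142, 143, 117 and 88.5 CPM and then 39.2, 56.4, 73.1, 124 and 145 CPM, a difference of -2.29 ± 0.33 (adjusted p = 0.000532 by edgeR).

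Of 22 tested genes for histone mRNA processing and turnover, 4 were called up and 5 down for the difference (median -0.08), shares close to the 23.6% and 22.8% of all genes. In series 11 and 13 alone 3 were called up and 10 down (median -0.31), where 19.7% and 18.2% of all genes were. Lsm10, a subunit of the U7 particle, had 27.2, 22.8, 18.3, 17.0 and 17.6 CPM in the downshift and 16.0, 16.6, 23.7, 24.7 and 25.0 CPM in the upshift. It fell after cooling and rose after warming, opposite to the core histone genes, with a difference of -1.44 ± 0.19 (adjusted p = 0.000333 by edgeR). Ncbp2 of the cap-binding complex (-0.95) and Srrt, a partner of that complex (-0.64), had the same direction, and Xrn1, a 5′ to 3′ exonuclease, had 0.93. Among 18 tested histone chaperones, which carry histones to DNA, 8 were called up and 4 down (median 0.26; 23.6 and 22.8% of all genes). Series 2 and 5 gave 7 up and 2 down (median 0.38), where 18.4 and 19.3% of all genes were. Series 11 and 13 gave 3 up and 4 down (median 0.00), where 19.7 and 18.2% of all genes were. Chaf1b, a subunit of chromatin assembly factor 1, had a difference of 1.60 and Nasp, an H3 and H4 chaperone, of 0.76, while Hjurp, which loads Cenpa, had -1.24 and Asf1b -0.98.

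Genes of the cell cycle were listed for comparison. Of 36 tested genes of G1/S and DNA replication, 11 were called up and 1 down for the difference (median 0.23), where 23.6% and 22.8% of all genes were. The pairs of series did not give the same picture. Series 2 and 5 gave 15 up and 1 down (median 0.53), where 18.4 and 19.3% of all genes were. Series 11 and 13 gave 6 up and 9 down (median -0.33), where 19.7 and 18.2% of all genes were. Tk1, thymidine kinase of S phase, had 158, 182, 201, 218 and 241 CPM and then 268, 284, 215, 162 and 141 CPM, a difference of 1.62 ± 0.20. Pole, the catalytic subunit of DNA polymerase epsilon (2.0), and Ccne1, the G1/S cyclin E (1.80), were called up as well. All 20 genes of G2 and mitosis were called down for the difference (median -1.96). After the downshift 19 of them fell (16.0% of all genes), and after the upshift 18 rose (16.1% of all genes). Cenpf, a kinetochore protein, had 498, 469, 343, 242 and 221 CPM and then 127, 189, 250, 418 and 406 CPM. It was thus highest after 16 h at 38 °C and lowest after 16 h at 33 °C. The mitotic list had 19 genes called down for the difference in each pair of series (19.3% of all genes in series 2 and 5 and 18.2% in series 11 and 13). The part of these cell cycle genes in the core histone result was not tested.

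**Figure D5:**
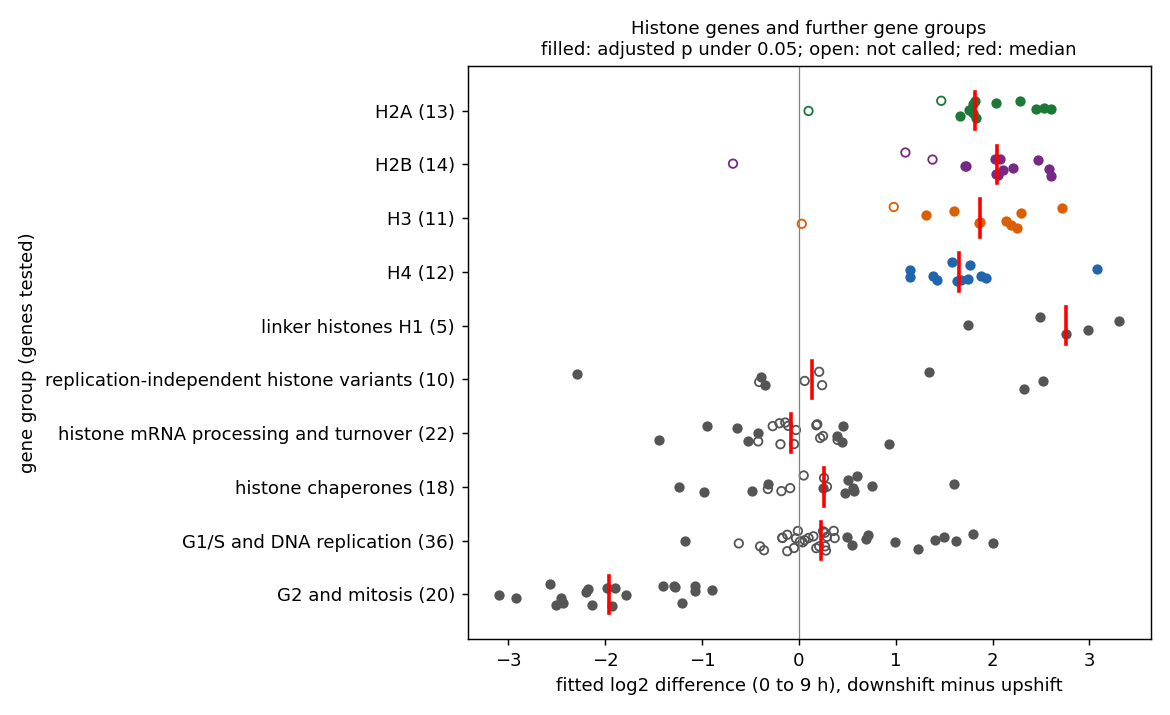
Fitted log2 difference, downshift minus upshift (x axis), of each tested gene in the 4 core histone classes and 6 further gene groups (y axis, number of genes in brackets). Filled points passed an adjusted p under 0.05, open points did not, and red bars are medians; core histone classes have medians of 1.65 to 2.05, H1 2.76 and G2 and mitosis -1.96.

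The plot of gene groups places the core histone classes and H1 to the right of 0 and the mitotic genes to the left, with the other groups spread around 0.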

How the data were processed

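Exon and intron reads of NIH3T3 total RNA were taken from the authors' deposited tables, whose values are estimated counts although the tables are named for RPKM: totals differ between columns, and 22.9% of exon values are whole (within 1e-06), in 46 members in every column. Per the submitters' processing notes the authors used STAR, bedtools and the build mm10; their versions, annotation, treatment of shared reads and strand setting are not stated there. Values were rounded, the 2 columns of a sample were summed (with an offset for each gene's mix of series) and scaled by TMM, and a line per course over log2(h + 1) was fitted with edgeR 4.0.16 (quasi-likelihood, Benjamini-Hochberg over 10271 genes with a mean of at least 1 RPKM by M21 length, or 50 counts without a length). Levels are CPM averaged over both columns. GENCODE M21 matched 36308 genes (95.3%) and 43 members. Full statistics are given, per class, for the 2 members highest in RPKM and those with the largest and smallest difference, and for up to 4 genes of each other list. The members and lists were chosen with earlier results of these data known. Alternatives used DESeq2 1.42.0, limma 3.58.1, other scalings, filters, time scales and column series. The fit was tested on simulated data. Series 10, present at 1 and 3 h of the downshift, entered only an alternative.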

Additional observations from a re-analysis of the deposited data

Results flagged for a closer look

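The extra column series 10, which exists at 2 downshift times and enters only an alternative fit, also holds core histone reads. Their sum was 2888 CPM at 1 h and 3229 CPM at 3 h. Series 5 had 3319 and 3718 CPM at those times and series 11 had 5439 and 6296 CPM, so series 10 was the lowest of the 3 at both.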

How the results depend on the processing

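Time points without a second sample, the unexplained column series and near-identical copies limit these results, as do low counts, 79 to 201 reads in Hist2h2be and 34 to 123 in Hist2h3c2. Scaling by DESeq2 or library size, other filters, DESeq2, limma and the summed columns without an offset kept each count of called members within 1.5 times. The downshift count of 9 became 1 in series 11 and 13, 5 with series 10 added, 29 with linear hours and 0 for 0 h against 3, 6 and 9 h (1 at an unadjusted p under 0.05); it was 0 to 14 with 1 sample left out. The upshift count of 43 became 21 in series 2 and 5 and 0 for 0 h against later times (5 at an unadjusted p under 0.05), and was 9 to 47 with 1 sample left out. The count of 43 for the difference became 0 for 0 h against later times (5 at an unadjusted p under 0.05), and was 27 to 47 with 1 sample left out. Among the 20 members with at least 50% of their windows in no other gene, 2, 19 and 19 were called in these tests. The count for the mean, 0 of 50, became 2 in series 11 and 13 (39 at an unadjusted p under 0.05 by edgeR). It was 0 to 0 with 1 sample left out. With time point as a replicate block, 35 members were called for the difference (20.4% of all genes), Hist1h2bb and Hist2h2bb (both 1.71) no longer among them. The cause of these moves was not tested.

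Without its member with the most reads, the class difference was 1.85 for H2A, 1.78 for H2B and 1.68 for H4; H4 had 1.64 with DESeq2 size factors. In series 2 and 5 it was 2.75, 2.68, 2.75 and 2.48 for H2A, H2B, H3 and H4, and in series 11 and 13 0.60, 0.59, 0.61 and 0.55. The median member in series 2 and 5 and in series 11 and 13 had 1.22 and 0.04 at 0 h, -0.58 and -0.12 at 1 h of the downshift, 0.13 and -0.25 at 1 h of the upshift, 0.89 and -0.10 at 9 h of the downshift, and -1.70 and -0.61 at 9 h of the upshift.

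Some fitted changes of named members turned sign. In series 11 and 13 the downshift change was -0.15 in Hist1h2ak, -0.12 in Hist1h2bb, -0.15 in Hist2h2bb and -0.18 in Hist1h4a, the upshift change 0.02 in Hist2h2ab and 0.68 in Hist2h3c2, and the difference -0.36 in Hist2h2ab, -0.42 in Hist1h3b and -0.64 in Hist2h3c2. In series 2 and 5 the downshift change was 0.29 in Hist1h3b and -0.05 in Hist2h3c2. For 0 h against later times the downshift change was -0.03 in Hist2h2bb and -0.10 in Hist2h3c2, the upshift change 0.09 in Hist2h2ab and 0.10 in Hist2h3c2, and the difference -0.51 and -0.20 in these. Hist1h3b had a downshift change of 0.01 with series 10 and 0.11 with linear hours, Hist2h2ab a difference of -0.03 without the offset, and Hist2h3c2 -0.03 with limma after the downshift and, with library size alone, 0.02 after the upshift and -0.01 for the difference. With 1 sample left out the downshift change was -0.05 to 1.00 in Hist1h2ak, -0.58 to 0.32 in Hist2h2ab, -0.20 to 0.90 in Hist2h2bb, -0.49 to 0.42 in Hist1h3b and -0.09 to 0.21 in Hist2h3c2. The upshift change was -1.05 to 0.22 in Hist2h2ab, -0.28 to 0.41 in Hist2h2be and -0.20 to 0.15 in Hist2h3c2, and the difference was -0.46 to 0.81 in Hist2h2ab and -0.15 to 0.25 in Hist2h3c2.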

Other observations

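The 14 genes that matched by name but fell under the read minimum include several near-identical copies of members. Hist2h2aa1, Hist2h3c1 and Hist3h2a were at 0 in every column, and Hist2h2aa2 averaged 10.9 reads. Hist1h2ao and Hist1h2ap averaged 1.45 and 0.68 reads and Hist1h2bq and Hist1h2br 0.77 and 0.41 reads, while Hist1h2ak and Hist1h2bn, which share windows with such copies, averaged 4058 and 2965 reads. Hist1h2ba, known as a testis-specific H2B gene, averaged 27.1 reads and its neighbour Hist1h2aa 0.36 reads.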
